A study of Mus musculus with 42 samples.

Results

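The genes described are 10 genes of T lymphocytes, measured in mouse skin and in skin tumours: Cd2, Cd3e, Cd3d, Cd3g, Cd4, Cd8a, Lag3, Ctla4, Cd28 and Rhoh. They were found by their annotated symbol, as 11 of the 21997 probes of the first array design and 13 of the 36924 probes of the second. Cd8a had 2 probes on the first design, and Cd8a, Cd28 and Rhoh had 2 each on the second. All 10 genes passed the filter on empty values, out of 13465 genes with a tested probe and a symbol. Of the 10, Rhoh is not a receptor but a GTPase without enzymatic activity inside blood cells, and the other members sit on the cell surface.

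The 4 labelled groups held 6 samples of untreated normal skin of adult mice, whose strain, sex and age the labels do not give, and tumours of female Sencar mice that were initiated at 7 to 8 weeks of age and treated with DMBA, a carcinogen, and TPA, a promoter of skin tumours. The tumours were 9 papillomas labelled low-risk, 10 papillomas labelled high-risk and 6 squamous cell carcinomas. A further 10 papillomas from the same treatment had no risk label and were hybridised on the second design. Whole tissue was homogenised, and each RNA was compared with a universal mouse reference RNA. Each sample had 1 array, except low-risk papilloma 1, to which a second array with swapped dyes was assigned. Of the papillomas, 6 high-risk and 2 low-risk samples shared a tumour code with another sample of their group. Whether these are separate tumours or repeat arrays of 1 tumour cannot be told from the labels. They were counted as separate, so n, SE and p may treat repeats of a tumour as replicates. Nothing in the labels says whether tumours came from separate mice, so p-values measure the spread between these samples.

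T cells recognise antigen through a T-cell receptor whose signal is carried into the cell by the CD3 chains, which Cd3e, Cd3d and Cd3g encode. The coreceptors CD4 and CD8 bind the MHC molecules that present the antigen, CD2 is an adhesion receptor, CD28 gives the second signal that activation needs, and CTLA4 and LAG3 restrain the response. RhoH is needed to bring the kinase ZAP70 to the activated receptor. Mouse epidermis holds resident T cells among its keratinocytes, and more enter inflamed or promoted skin. Several members are genomic neighbours. In RefSeq's gene order Cd3g, Cd3d and Cd3e follow one another on chromosome 9, Cd4 is next to Lag3 and Cd8a next to Cd8b1 on chromosome 6, and Cd28 is next to Ctla4 on chromosome 1.

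Values below are levels as log2 of sample over reference, after each array's median was set to 0, and differences between groups are log2 changes. The direction of the ratio is the likely one and is not stated in the labels. A level compares a tissue with the reference for 1 probe and says nothing about one gene against another. The labelled arrays fell into 5 sets by the pattern of their empty probes, here called A to E. Of the normal skins, 4 were in set A, 1 in C and 1 in D. Low-risk papillomas were in set B (6) and set D (3). High-risk papillomas were in sets C (4), E (4), A (1) and D (1), and carcinomas in sets D (4) and C (2). The median SD of an array's values was 0.70 in set C and 1.00 to 1.59 in the other sets. Normal skin 1 and carcinoma 6 were near-identical arrays with different labels (Pearson r = 0.984 over the probes of a pair of arrays, where probes are no replicates). An array with swapped dyes was averaged with low-risk papilloma 1, the tumour its source name gives, although the 2 arrays correlated at only 0.306, the lowest of the swapped array's correlations with the 9 other low-risk arrays; the highest was with low-risk papilloma 5 (0.629). Title and source name of low-risk papilloma 10 give different numbers, and the title's is used.

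RefSeq promoter sequences were at hand for 6 of the 10 members: Rhoh, Cd3e, Cd8a, Cd3d, Cd3g and Ctla4. The 250 bases before the transcription start are shown for 3 of them, the members whose level differed between groups and that have a sequence. All are 5′ to 3′ on the gene's own strand in build GRCm38.p6, with Rhoh at chr5:65863334-65863583, plus strand, Cd3e at chr9:45009612-45009861, minus strand and Cd8a at chr6:71373177-71373426, plus strand. Capitals mark CAGGAA or its reverse complement TTCCTG, an ETS-type core.
Rhoh: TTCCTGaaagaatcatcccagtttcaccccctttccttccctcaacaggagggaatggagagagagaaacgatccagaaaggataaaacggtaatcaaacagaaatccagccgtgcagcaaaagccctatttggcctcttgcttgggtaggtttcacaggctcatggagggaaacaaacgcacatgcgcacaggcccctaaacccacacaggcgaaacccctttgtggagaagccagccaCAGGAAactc
Cd3e: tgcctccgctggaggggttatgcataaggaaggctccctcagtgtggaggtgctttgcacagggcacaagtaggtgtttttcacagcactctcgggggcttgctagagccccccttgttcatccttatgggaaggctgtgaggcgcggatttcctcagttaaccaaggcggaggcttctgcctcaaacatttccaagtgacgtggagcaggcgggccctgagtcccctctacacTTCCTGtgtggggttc
Cd8a: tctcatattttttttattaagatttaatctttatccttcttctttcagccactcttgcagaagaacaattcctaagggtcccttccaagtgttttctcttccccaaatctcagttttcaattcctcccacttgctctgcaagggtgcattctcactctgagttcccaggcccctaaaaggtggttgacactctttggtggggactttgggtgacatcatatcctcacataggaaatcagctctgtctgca
The 250 bases were searched on both strands for 4 motifs of factors active in T cells: CAGGAA of ETS factors, TGTGGT of RUNX factors, AGATAA of GATA factors and CAGCTG of E proteins. CAGGAA stood in 3 of the 6 member promoters (Rhoh, Cd3e and Cd3d) and in 25.7% of 32851 promoters of the same length. AGATAA stood in that of Cd3g, against 9.99% of all, while TGTGGT (14.0% of all) and CAGCTG (13% of all) stood in none of the 6. The matches do not overlap one another, and a match is a description of the letters only.

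Low-risk papillomas held far more Cd2 and Rhoh signal than normal skin, and less Cd3e and Cd8a signal. Of the 10 members, 4 were called by limma in this comparison, where 7.55% of 18904 probes were called. The calls were 2 higher and 2 lower, against 3.94% and 3.61% of all probes. Cd2 was 9.69-fold higher and Rhoh 11.1-fold higher. Cd3e was 2.06-fold lower and Cd8a 2.31-fold lower. The members thus did not move together, and the median log2 change of the 10 was 0.55 against -0.02 over all probes.

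Cd2 lay at -1.83, -1.14 and 0.72 (lowest, median and highest) in the 6 normal skins. In the 9 low-risk papillomas it lay at 1.60, 2.49 and 3.64. The groups did not overlap, as held for 1 of the 10 members and for 1.82% of all probes. The means were 2.41 ± 0.65 (SD, n = 9) and -0.87 ± 0.88 (SD, n = 6), and the change was 3.28 ± 0.45 (SE; limma, adjusted p = 7.6e-05).

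Rhoh lay at 1.29, 1.82 and 4.41 in normal skin. In low-risk papillomas it lay at 4.38, 5.26 and 7.05. The ranges touched only through normal skin 1, the array that nearly equals carcinoma 6, and the other 5 normal skins lay at 2.06 or lower. The means were 5.62 ± 0.90 (SD, n = 9) and 2.15 ± 1.14 (SD, n = 6), with a change of 3.47 ± 0.56 (SE; limma, adjusted p = 0.000571). After scale normalization, which equalises the spread of the arrays, the change was 2.05 (adjusted p = 0.08).

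Cd3e lay at 0.24, 0.59 and 0.86 in normal skin and at -1.06, -0.56 and 0.66 in low-risk papillomas. All but 1 of the 9 papillomas lay below every normal skin. The exception was low-risk papilloma 1, whose 2 arrays gave 2.12 and, with swapped dyes, -0.80. The change was -1.04 ± 0.23 (SE; limma, adjusted p = 0.00489). Without the swapped array it was -0.88 (adjusted p = 0.099), and with that array as a tumour of its own -0.93 (adjusted p = 0.0637).

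Cd8a lay at 0.32, 1.16 and 1.69 in normal skin and at -1.17, 0.19 and 0.74 in low-risk papillomas. Of the papillomas, 6 of 9 lay below all normal skins and all 9 below the mean of normal skin. The change was -1.21 ± 0.28 (SE; limma, adjusted p = 0.00846). The gene's other probe did not show it: there the means were -0.02 ± 0.50 (SD, n = 9) in low-risk papillomas and 0.16 ± 0.41 (SD, n = 5) in normal skin, and the change was -0.18 (adjusted p = 0.704). The fit of these 2 groups alone gave the first probe an adjusted p of 0.0535.

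Of the 6 other members in this comparison, Cd28 had a change of 0.74 ± 0.28 (SE; limma, adjusted p = 0.0997), which passed the threshold only unadjusted. Cd28 was tightly grouped in normal skin, from -0.36 to -0.05, and 5 of 8 low-risk papillomas lay above that range. The 5 others, Cd3d, Cd3g, Cd4, Lag3 and Ctla4, had changes between -0.71 and 0.84, with adjusted p of 0.251 or more.

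The array sets and the groups largely coincided, so each call was also read with them. With the set as a block no member was called between low-risk papillomas and normal skin, and 2 of 18895 probes were. The changes were then 1.54 for Cd2 (adjusted p = 0.732), 2.63 for Rhoh (adjusted p = 0.568), -1.46 for Cd3e (adjusted p = 0.384) and -0.90 for Cd8a (adjusted p = 0.768), all in the same direction as before. Within set D, the only set with both groups, normal skin 2 could be set against 3 papillomas. Cd2 was -0.56 in that skin and 1.60 to 1.97 in the papillomas, and Rhoh was 1.73 against 4.72 to 5.26. Cd3e was 0.86 against -1.06 to -0.56, and Cd8a was 0.99 against 0.19 to 0.63. In each of the 4 genes the skin lay outside the papillomas' range, on the same side as in the full comparison. The same arrays were in the fit that called these genes, so this is no separate check. How many of all probes do the same was not counted, and 1 skin gives no spread of its own.

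**Figure D1:**
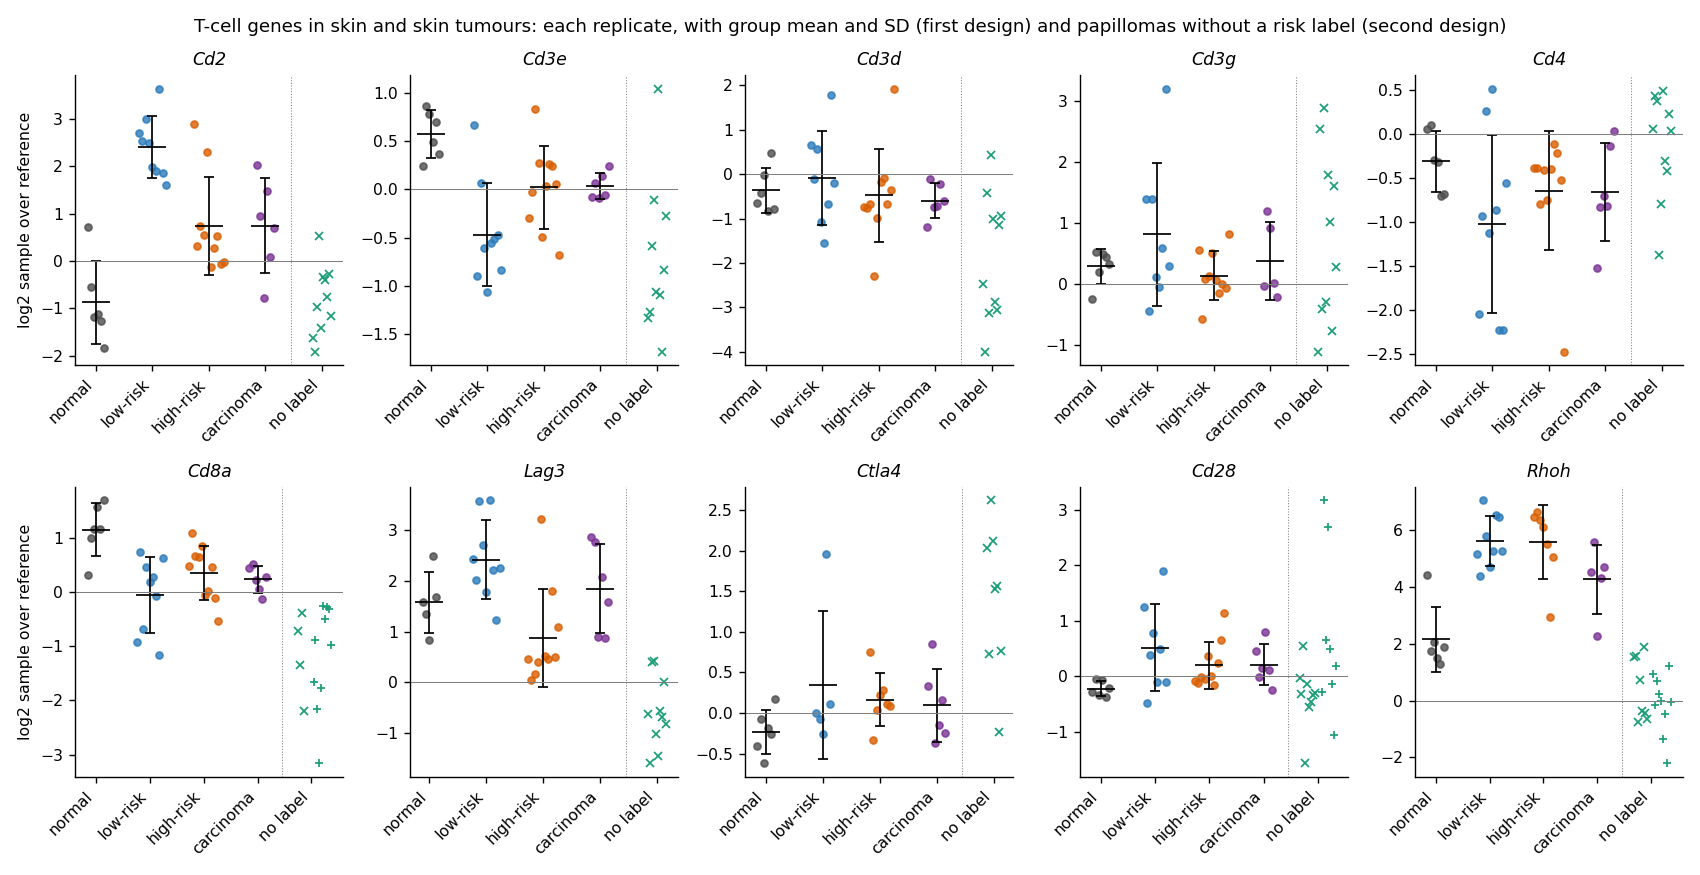
Level of each gene as log2 sample over reference (y axis) in the 4 labelled groups on the first array design (points: replicates, bars: mean and SD), and, right of the dotted line, in 10 papillomas without a risk label on the second design (crosses and plus signs: separate probes). Cd2 of the low-risk papillomas lies at 1.60 to 3.64, above all normal skins, and Rhoh of normal skin 1 stands at 4.41, apart from the other 5 normal skins.

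High-risk papillomas also held more Rhoh and Cd2 than normal skin. Of the 10 members, 2 were called, both higher, where 5.01% of all probes were called and 2.57% were called higher. Rhoh was 10.8-fold higher and Cd2 3.04-fold higher. This comparison shares the normal skins with the one above, so neither is independent of the other.

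Rhoh lay at 2.93, 6.12 and 6.63 in the 7 high-risk papillomas that had a value. It was empty in 3 others, high-risk papillomas 6, 7 and 9, all in set C, so the mean of 5.58 ± 1.30 (SD, n = 7) leaves out most of that set. The lowest value, 2.93, was high-risk papilloma 8, the remaining one in set C, and the other 6 lay at 5.04 or higher. The change was 3.43 ± 0.59 (SE; limma, adjusted p = 0.00142). It was 2.29 after scale normalization (adjusted p = 0.0626) and 2.13 with the set as a block (adjusted p = 0.238).

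Cd2 lay at -0.12, 0.42 and 2.89 in the 10 high-risk papillomas. All 10 lay above the mean of normal skin, and 3 lay above its highest value, that of normal skin 1. The change was 1.60 ± 0.45 (SE; limma, adjusted p = 0.0309). The call was lost when any one of normal skins 3, 4, 5 and 6 or high-risk papilloma 1 was left out (adjusted p of 0.0524 to 0.106). Within set A, high-risk papilloma 10 lay 1.32 above 4 normal skins, and within set D high-risk papilloma 5 lay 2.85 above normal skin 2. Within set C the sign turned, with 4 papillomas 0.57 below normal skin 1 (log2 change -0.57). With the set as a block the change was 0.93 (adjusted p = 0.527).

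Cd3e and Cd8a again had negative changes, of -0.55 ± 0.22 and -0.79 ± 0.28 (SE), which did not pass limma (adjusted p = 0.145 and 0.092). Without normal skin 1 that of Cd8a was -0.96 (adjusted p = 0.0355), while its other probe, in all samples, gave -0.28 (adjusted p = 0.57). The first Cd8a probe was also called by limma after scale (-0.89, adjusted p = 0.0158) and quantile normalization (-0.98, adjusted p = 0.0143). The 6 other members had changes from -0.71 to 0.42 with adjusted p of 0.393 or more. Within set A, which sets high-risk papilloma 10 alone against 4 normal skins, the change was -1.26 for Cd3e and -1.93 for Cd8a by its first probe. A lone tumour gives no spread of its own, so no calls are read from that set.

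In carcinomas no member was called against normal skin by limma, where 1.16% of all probes were called. An unadjusted p under 0.05 was held by 4 members and by 2142 of 18904 probes. The 4 members were Rhoh, Cd2, Cd8a and Cd3e, measured against the same skins as before. Rhoh lay at 2.29, 4.30, 4.53, 4.70 and 5.59 in 5 carcinomas and was empty in carcinoma 5. Its change was 2.13 ± 0.64 (SE; limma, adjusted p = 0.11). Cd2 lay at -0.78, 0.82 and 2.03, with a change of 1.61 ± 0.50 (SE; limma, adjusted p = 0.117). Cd8a had a change of -0.92 ± 0.31 (SE, adjusted p = 0.168), or -0.24 by its other probe (adjusted p = 0.855), and Cd3e one of -0.54 ± 0.25 (SE, adjusted p = 0.388). By its first probe Cd8a was called by limma after scale (adjusted p = 0.0348) and quantile normalization (adjusted p = 0.0303). It was also called with only the 2 groups in the fit (adjusted p = 0.0395). Once normal skin 1 and carcinoma 6 were both left out, Rhoh was called at 2.47 (adjusted p = 0.0393) and Cd2 at 1.94 (adjusted p = 0.0407). Without normal skin 1 alone they were called at 2.58 (adjusted p = 0.0162) and 1.93 (adjusted p = 0.0252). The 6 other members had changes from -0.35 to 0.43.

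**Figure D2:**
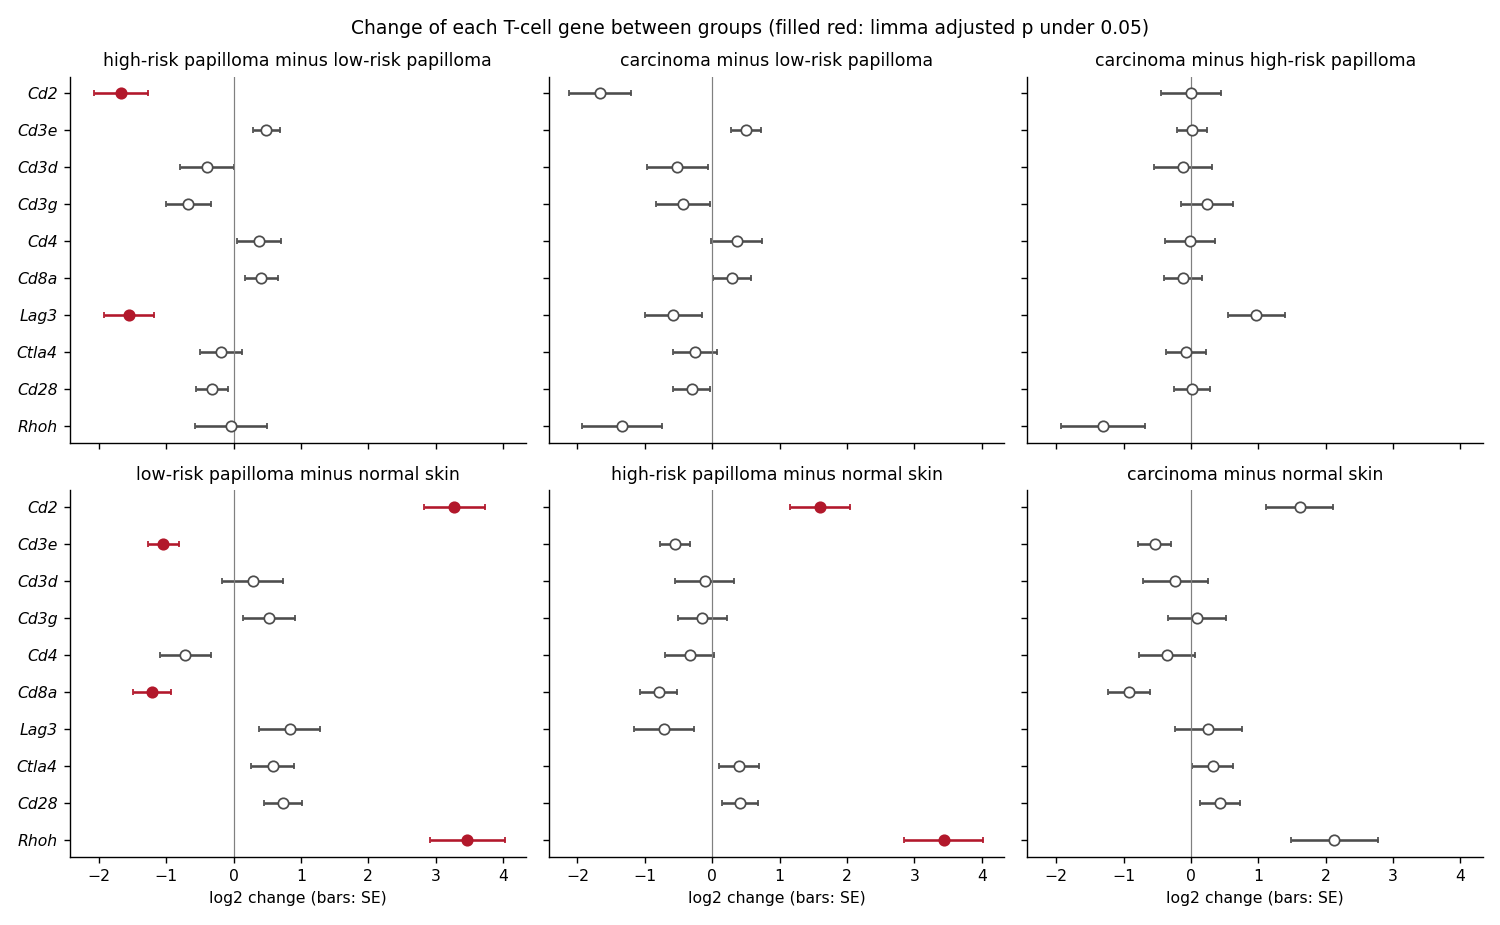
Log2 change of each gene (x axis, bars: SE) in the 6 comparisons, with filled red points where limma's adjusted p was under 0.05. The 8 calls are Cd2 and Rhoh above normal skin in both papilloma groups, Cd3e and Cd8a below normal skin in low-risk papillomas, and Cd2 and Lag3 lower in high-risk than in low-risk papillomas.

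Between the papilloma groups, high-risk tumours held less Cd2 and less Lag3. Of the 10 members, 2 were called, both lower, where 0.667% of all probes were called and 0.312% were called lower, and the median log2 change of the 10 was -0.25 against 0.02 over all probes. The Cd2 values are those given above, with 8 of 10 high-risk papillomas below every low-risk one. High-risk papillomas 1 and 5, at 2.89 and 2.29, lay inside the low-risk range. The log2 change was -1.67 with an SE of 0.40.

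Lag3, the inhibitory receptor that binds MHC class II, lay at 1.23, 2.25 and 3.58 in low-risk papillomas. In high-risk papillomas it lay at 0.05, 0.48 and 3.21, with 8 of 10 below every low-risk tumour. High-risk papilloma 5 was the highest and high-risk papilloma 8 next, at 1.80. The 4 papillomas of set E lay at 0.05 to 0.46. The means were 0.87 ± 0.97 (SD, n = 10) and 2.42 ± 0.78 (SD, n = 9). Against normal skin, at 0.83, 1.34, 1.58, 1.67 and 2.48 in the 5 skins with a value, neither papilloma group was called. The log2 change between the papilloma groups was -1.55 with an SE of 0.37.

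Both of these calls were near the threshold (limma, adjusted p of 0.04 and 0.0437) and held under 11 of 18 other settings for Cd2 and 7 of 17 for Lag3. That of Cd2 was lost in 13 of the 31 fits that left out 1 sample (adjusted p of 0.0516 to 0.0779), namely without low-risk papilloma 1, 2, 4, 5 or 8 or high-risk papilloma 2, 3, 4, 6, 7, 8, 9 or 10. That of Lag3 was lost in 17 (adjusted p of 0.0507 to 0.0853), namely without normal skin 2 or 6, low-risk papilloma 1, 4, 5, 7, 8 or 10, high-risk papilloma 1, 2, 3, 4, 6, 7 or 9, or carcinoma 4 or 6. The changes in these fits stayed between -1.91 and -1.52 for Cd2 and between -1.81 and -1.40 for Lag3. With the array set as a block they were -0.61 and -0.42 (adjusted p of 1 for both). Within set D the signs turned, since high-risk papilloma 5 lay 0.47 above the mean of 3 low-risk papillomas in Cd2 and 0.68 above it in Lag3. Without set C, whose ratios were narrow, the changes were -1.28 for Cd2 (adjusted p = 0.142) and -1.52 for Lag3 (adjusted p = 0.108).

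**Figure D3:**
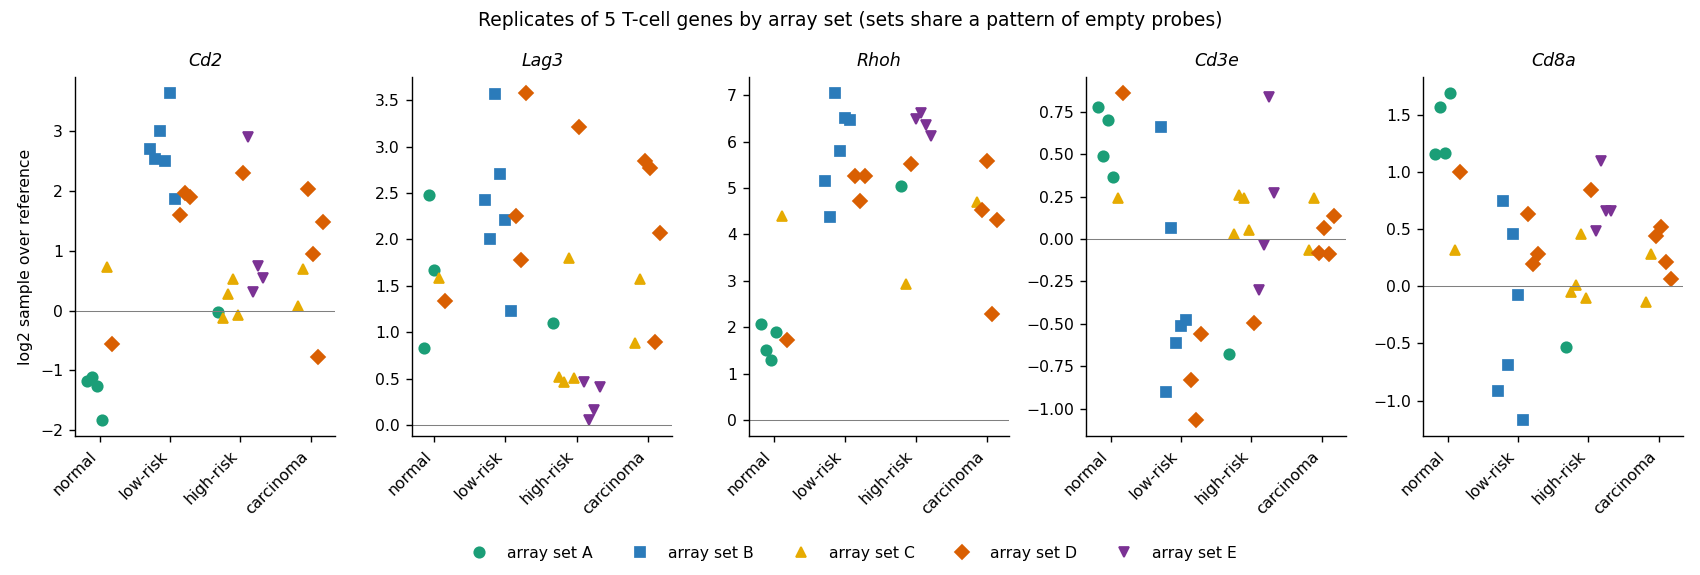
Levels of Cd2, Lag3, Rhoh, Cd3e and Cd8a as log2 sample over reference (y axis) by group (x axis), with colour and shape for the 5 array sets. Every set B point is a low-risk papilloma and every set E point a high-risk papilloma, and in set D the high-risk papilloma stands above the 3 low-risk papillomas in Cd2 (2.29 against 1.60 to 1.97).

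The other 8 members did not pass between the papilloma groups. Cd3e was higher in high-risk papillomas by 0.49 ± 0.20 (SE; limma, adjusted p = 0.196), with an unadjusted p under 0.05, and the 7 others had changes from -0.67, of Cd3g, to 0.41, of Cd8a. Rhoh was nearly the same in the means of both papilloma groups, 5.58 and 5.62, with a change of -0.04 ± 0.53 (SE).

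Carcinomas differed from neither papilloma group by limma in any member. Against low-risk papillomas 1.12% of all probes were called. An unadjusted p under 0.05 was held by 3 members and by 3045 of 18904 probes. Cd2 had a change of -1.67 ± 0.45 (SE; limma, adjusted p = 0.0592), and 5 of 6 carcinomas lay below every low-risk papilloma. Rhoh had a change of -1.34 ± 0.59 (SE, adjusted p = 0.254), and Cd3e one of 0.50 ± 0.23 (SE, adjusted p = 0.26). The sign of Rhoh turned after scale normalization (0.72) and quantile normalization (0.13). Cd2 passed without normal skin 1 (adjusted p = 0.0479), low-risk papilloma 6 (adjusted p = 0.0359), high-risk papilloma 1 (adjusted p = 0.036) or high-risk papilloma 5 (adjusted p = 0.0435).

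Against high-risk papillomas 0.0423% of all probes were called in carcinomas. An unadjusted p under 0.05 was held by 2 members and by 1983 of 18904 probes. Lag3 lay at 0.88, 1.82 and 2.85 in carcinomas, with a change of 0.97 ± 0.42 (SE; limma, adjusted p = 0.412). All 6 carcinomas lay above the mean of the high-risk papillomas and within their range. Within set D the sign turned, with 4 carcinomas 1.07 below high-risk papilloma 5 (log2 change -1.07). Rhoh had a change of -1.30 ± 0.62 (SE, adjusted p = 0.465), which also turned its sign under scale (0.49) and quantile (0.36) normalization. Cd2 had means of 0.74 in both groups.

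Ordered by group mean, Cd2 ran from normal skin (-0.87) through high-risk papillomas (0.74) and carcinomas (0.74) to low-risk papillomas (2.41). The middle pair did not differ beyond its spread, and the steps on either side of them to normal skin and low-risk papillomas were called only with high-risk papillomas. Lag3 ran from high-risk papillomas (0.87) through normal skin (1.58) and carcinomas (1.84) to low-risk papillomas (2.42), and no neighbours in that order differed by the test. Rhoh ran from normal skin (2.15) through carcinomas (4.28) and high-risk papillomas (5.58) to low-risk papillomas (5.62), also with no called step between neighbours. Cd3e ran the other way, from low-risk papillomas (-0.47) through high-risk papillomas (0.02) and carcinomas (0.03) to normal skin (0.57), and Cd8a in the order low-risk papillomas (-0.06), carcinomas (0.23), high-risk papillomas (0.35) and normal skin (1.15). In both, only the 2 ends of the order were told apart.

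Cd3d and Cd3g, the other CD3 chains, were not called between any groups, which does not show that their levels were equal. Cd3d lay at -0.82, -0.53 and 0.48 in normal skin, at -1.54, -0.16 and 1.77 in 8 low-risk papillomas, at -2.28, -0.68 and 1.93 in high-risk papillomas and at -1.20, -0.66 and -0.10 in carcinomas. High-risk papilloma 10 alone gave the 1.93, and the other 9 lay at -0.08 or lower. Cd3g lay at -0.26, 0.38 and 0.52 in normal skin and at -0.45, 0.44 and 3.21 in 8 low-risk papillomas. In high-risk papillomas it lay at -0.57, 0.08 and 0.81, and in 5 carcinomas at -0.21, -0.04, 0.01, 0.92 and 1.19. The groups overlapped in both chains, with all 6 carcinomas below 0 in Cd3d, and Cd3e, their neighbour in the genome and partner in the receptor, was the only chain with a call.

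Cd4, the coreceptor of helper T cells, lay at -0.71, -0.31 and 0.10 in normal skin and at -2.23, -0.93 and 0.52 in low-risk papillomas. In high-risk papillomas it lay at -2.47, -0.40 and -0.12, and in carcinomas at -1.52, -0.76 and 0.04. Its group means were between -1.02 and -0.31, with low-risk papillomas the lowest, and 6 of 9 of those lay below all normal skins. Low-risk papilloma 1 is uncertain in this gene, since its 2 arrays gave -0.81 and, with swapped dyes, -3.29.

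The costimulatory receptor Cd28 lay at -0.36, -0.25 and -0.05 in normal skin and at -0.48, 0.44 and 1.90 in 8 low-risk papillomas. High-risk papillomas lay at -0.16, 0.00 and 1.14 and carcinomas at -0.24, 0.13 and 0.81. All 10 high-risk papillomas lay above the mean of normal skin, and 7 above its highest value, with a change that did not pass. Ctla4, the inhibitory relative of Cd28, had values in 24 of the 31 samples. It lay at -0.62, -0.22 and 0.17 in normal skin, at -0.26, -0.07, 0.00, 0.12 and 1.96 in 5 low-risk papillomas, at -0.34, 0.12 and 0.75 in 7 high-risk papillomas and at -0.37, 0.01 and 0.84 in carcinomas. Its value near 0 in low-risk papilloma 1 is the mean of -1.82 and, with swapped dyes, 1.82.

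The 10 papillomas without a risk label give another view of the members, on other probes, with no group to compare. Cd2 lay at -1.91, -0.86 and 0.54 there, below 0 in 9 of 10. Lag3 lay at -1.60, -0.65 and 0.42, below 0 in 7 of 10. The 2 Rhoh probes lay at -0.76, 0.19 and 1.88 in 8 tumours and at -2.22, -0.04 and 1.22 in all 10. On the first design, every labelled papilloma with a value was at 2.93 or higher in Rhoh, and every one was above 0 in Lag3. Whether this comes from the tumours or from the probes cannot be told apart, because no sample was on both designs, and the level of a probe cannot be set against that of another.

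Cd3d was low in the unlabelled papillomas, at -3.99, -1.82 and 0.42, and Cd3e lay at -1.68, -0.95 and 1.04, both below 0 in 9 of 10. Cd3g spread from -1.11 to 2.89 around a median of 0.65. Cd4 lay at -1.38, 0.05 and 0.49. Cd8a was below 0 in all 10 by the probe of its older record, at -3.16, -0.93 and -0.26, and in all 4 tumours with a value by the other, at -2.20, -1.34, -0.73 and -0.39. Ctla4 lay at -0.24, 1.55 and 2.62 in 8 tumours, above 0 in 7. The 2 Cd28 probes had medians of -0.31 in 9 tumours and 0.34 in 8, and their highest values were 0.56 and 3.17.

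Of 30 tested genes of T-cell receptor signalling, none was called between tumour groups, and 1, 2 and 1 were called against normal skin in the low-risk, high-risk and carcinoma groups, all lower. The same comparisons called 7.55%, 5.01% and 1.16% of all probes, against which the counts of this list and of those below can be read, and between tumour groups the shares were 0.667% (high-risk against low-risk), 1.12% (carcinoma against low-risk) and 0.0423% (carcinoma against high-risk). Itpkb, a kinase of inositol phosphates that T-cell development needs, was lower in low-risk papillomas (-1.37 ± 0.27, SE; limma, adjusted p = 0.00289) and in high-risk papillomas (-1.11 ± 0.28, SE, adjusted p = 0.0221). Pik3cd, the leukocyte subunit of PI3-kinase, was lower in high-risk papillomas (-1.09 ± 0.31, SE, adjusted p = 0.0336). Gata3, a factor of helper T cells that keratinocytes also use, was lower in carcinomas (-1.48 ± 0.36, SE, adjusted p = 0.0331). Of this list's genes not called against normal skin, 12 of 29 were above 0 in low-risk papillomas and 19 of 28 in high-risk papillomas. In carcinomas 12 of 29 were above 0. The list's median log2 change lay between -0.14 and 0.16 in the 6 comparisons, and was 0.16 in high-risk papillomas against normal skin.

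Of 34 other tested surface genes of T and NK cells, 2 were called, both lower in low-risk papillomas than in normal skin. They were Spn, the sialophorin CD43 (-1.03 ± 0.28, SE; limma, adjusted p = 0.0219), and Slamf7 (-1.21 ± 0.38, SE, adjusted p = 0.0463). Of the 32 others in that comparison, 20 were above 0 and 12 below. The list's median stayed between -0.21 and 0.08, and was 0.08 in that comparison. Of 11 tested ligands of the members, B2m, the light chain of MHC class I that CD8 binds beside, was the only call and was lower than in normal skin in low-risk papillomas (-1.14 ± 0.34, SE, adjusted p = 0.0353), high-risk papillomas (-1.33 ± 0.33, SE, adjusted p = 0.0174) and carcinomas (-1.43 ± 0.37, SE, adjusted p = 0.049). H2-K1, a class I heavy chain, had changes of -1.74 ± 0.57 (SE, adjusted p = 0.0739) and -1.82 ± 0.57 (SE, adjusted p = 0.13) in the latter pair. Of the 10 ligands not called against normal skin, 3 were above 0 in low-risk papillomas, 7 in high-risk papillomas and 4 in carcinomas.

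Of 25 tested cytotoxic and cytokine genes, Il17a, a cytokine of some helper and dermal T cells, was lower than in low-risk papillomas both in high-risk papillomas (-1.50 ± 0.36, SE; limma, adjusted p = 0.0491) and in carcinomas (-2.0 ± 0.42, SE, adjusted p = 0.018). Ltb, lymphotoxin beta, was lower in carcinomas than in low-risk papillomas (-0.97 ± 0.24, SE, adjusted p = 0.0454). Against normal skin Il4 was higher in low-risk papillomas (2.12 ± 0.59, SE, adjusted p = 0.0242) and the chemokine Ccl3 higher in high-risk papillomas (1.56 ± 0.43, SE, adjusted p = 0.0313). No other gene of the list was called in any comparison, and its median lay between -0.21 and 0.04. Of the genes not called against low-risk papillomas, 8 of 24 were above 0 in high-risk papillomas and 10 of 23 in carcinomas. Against normal skin 13 of 24 were above 0 in low-risk papillomas and 8 of 24 in high-risk papillomas.

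Markers of other cell types were read beside the members. Keratinocyte markers were above the reference in every sample, with mean levels of 0.96 to 2.06 in normal skin, 1.28 to 3.28 in low-risk papillomas, 1.05 to 3.5 in high-risk papillomas and 0.81 to 1.70 in carcinomas, and none of 10 was called in any comparison. Of 7 tested genes of leukocytes in general, Arhgdib and Dock2 were higher than in normal skin in low-risk papillomas (1.13 ± 0.30 and 0.73 ± 0.22, SE; limma, adjusted p = 0.0205 and 0.0346) and in high-risk papillomas (1.08 ± 0.31 and 0.77 ± 0.22, SE, adjusted p = 0.0375 and 0.0346), where 7.55% and 5.01% of all probes were called. The 5 others were not called, with changes from -0.86 to 0.77 in low-risk papillomas (3 of 5 below 0) and from -0.84 to 0.68 in high-risk papillomas (4 of 5 below 0). The mean level of the 7 ran from -0.35 to 0.05 in normal skin, -0.48 to 0.46 in low-risk papillomas, -0.40 to 0.40 in high-risk papillomas and -0.07 to 0.38 in carcinomas. The part of leukocyte numbers in the changes of the members was not tested, and in whole tissue fewer cells of a type cannot be told apart from less RNA per cell.

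Among 19 tested markers of macrophages and dendritic cells, Lyz1 was higher in carcinomas than in low-risk papillomas (2.13 ± 0.47, SE; limma, adjusted p = 0.0211), and Tyrobp (-1.22 ± 0.34, SE, adjusted p = 0.0349) and Marco (-0.89 ± 0.23, SE, adjusted p = 0.0259) were lower in high-risk papillomas than in normal skin. Of the 17 markers not called in high-risk papillomas against normal skin, 9 were above 0 and 8 below. Of the 18 not called in carcinomas against low-risk papillomas, 15 were above 0 and 3 below. The mean level of the 19 ran from -0.76 to -0.35 in normal skin, -1.81 to 0.64 in low-risk papillomas, -1.37 to -0.18 in high-risk papillomas and -0.34 to 0.67 in carcinomas. Of 13 tested genes of B and plasma cells, Cd79a was the only one called and was lower in high-risk papillomas than in normal skin (-1.62 ± 0.44, SE, adjusted p = 0.0292). The 12 others did not share its direction, with 8 above 0 and 4 below in that comparison.

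**Figure D4:**
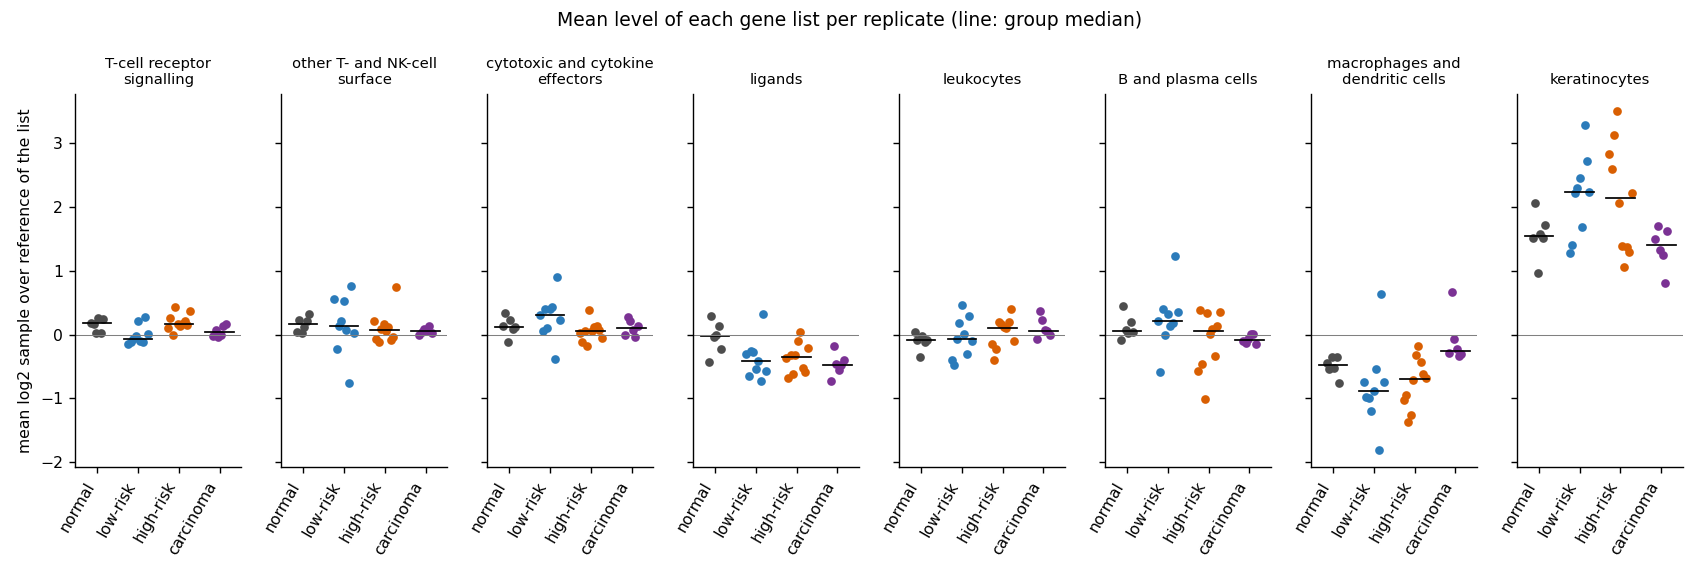
Mean log2 sample over reference of the tested genes of each list (y axis) in every replicate by group (points; line: group median). Keratinocyte markers lie above 0 in all 31 replicates, and the list of T-cell receptor signalling lies between -0.15 and 0.44. The list of other T- and NK-cell surface genes spreads from -0.76 to 0.77 in low-risk papillomas and reaches 0.75 in a high-risk papilloma.

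The genes whose levels ran most like the members were sought over the 31 replicates among 4206 named genes with a value in each. These correlations describe the profiles, and the points share groups and array sets. Most like the mean of the 10 members, each set to the same spread, were Smpd1 (r = 0.754), Acod1 (r = 0.722), Ankrd49 (r = 0.702), Fmr1 (r = 0.701) and Foxo3 (r = 0.698). Most like Cd2 were the calcium channel gene Cacna1e (r = 0.924), Sprr2k of the small proline-rich family of cornified envelope proteins (r = 0.876) and Rprd2 (r = 0.846). Sprr2k had mean levels of 0.31 in normal skin, 3.46 in low-risk papillomas, 2.12 in high-risk papillomas and 1.40 in carcinomas. Most like Cd3e were Selenof (r = 0.72), Prkaa2 (r = 0.688) and Rtkn2 (r = 0.684), and most like Cd8a were Rara (r = 0.919), Tcf3 (r = 0.837) and Siva1 (r = 0.798). The members themselves were left out of the search. Of the 100 tested genes on the lists of T-cell genes and ligands 17 had a value in each replicate and could be found, and none of the 17 was among these 14 genes.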

How the data were processed

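Two-colour oligonucleotide arrays compared skin or tumour RNA with a universal mouse reference. The deposited values are log ratios, read here as log2, that the authors made from scanner data not analysed here; how they were normalized, filtered and oriented, and in which base, is not given in the sources used here. Base 2 was taken, and Cy5 (reference) over Cy3 (sample) is the likely direction. Probes of a list of 18 skin genes (17 probes on the first design) had a median below 0 on each of 41 arrays whose sample was in Cy3. Those of 22 listed genes of internal organs had a median above 0 on all 41. On the swapped array the skin median was 2.36 and the organ median 0.121, so the skin genes turned their sign there and the organ genes did not. All arrays but the dye-swapped one were negated and each was centred on its median. The swapped array was averaged with low-risk papilloma 1. Probes were named from the platform annotation (16076 of 21997 probes of the first design and 26926 of 36924 of the second had 1 symbol).

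A probe was tested when at least 3 replicates of every group and 70% of the 31 replicates had a value, with 1 probe per symbol, that with the most values. Groups were compared with limma 3.58.1 (R 4.3.3) in 1 model of 4 groups, with Benjamini-Hochberg adjustment over 18904 probes and a threshold of 0.05; comparisons that share a group are not independent. Changes are given for the 21 of 60 pairs of member and comparison with an unadjusted p under 0.05, and the other 39 by their range. Of those 39, the change of Rhoh between the papilloma groups is given as well. All members are named; of other lists up to 2 genes with the smallest p where a gene passed; and the 5 genes most like the members' mean and 3 most like each called member with 31 values. The members and lists were chosen with earlier results of these data known. Alternatives were other scalings, filters, probes, blocks, treatments of the swapped array, and samples left out. On simulated data limma recovered 73% to 90% of changes of 2 (log2) and 22% to 36% of changes of 1. The simulated noise was independent between arrays, without array sets or shared tumour codes. These shares therefore do not describe groups that largely coincide with sets, as here. The array number limits precision; the labelled arrays had 2.29% to 26.0% empty probes. Numbers in the titles did not pair samples: the median correlation across genes of same-numbered samples was -0.0245 over 37 pairs and of others 0.01 over 317. Promoters are RefSeq's (GRCm38.p6), matched by symbol for 6 of 10 members.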

Additional observations from a re-analysis of the deposited data

Results flagged for a closer look

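In each group of 4 to 10 samples, a member's highest or lowest value was set against the rest by Dixon's gap ratio. Of 40 groups 5 had such a value. The nominal rate of about 1 in 20 assumes independent values of equal spread. Arrays here came from sets of unlike spread and recur across genes, so the count is not read against that rate. Rhoh was 4.41 in normal skin 1, with the other 5 normal skins at 1.29 to 2.06; this array nearly equals that of carcinoma 6, which had 4.70. Rhoh was 2.93 in high-risk papilloma 8, with the other 6 at 5.04 to 6.63. High-risk papilloma 10, the only tumour in array set A, stood apart in 2 genes: Cd4 was -2.47 there, with the other 9 at -0.80 to -0.12, and Cd3d was 1.93, with the other 9 at -2.28 to -0.08. Ctla4 was 1.96 in low-risk papilloma 9, with the other 4 at -0.26 to 0.12. The causes were not tested.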

How the results depend on the processing

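The number of members called depended on the setting. The setting of probes measured in all 31 replicates tested 4 of the 10 members (Cd2, Cd3e, Cd4 and Cd8a), so a lower count there is not by itself a lost call. Between high-risk and low-risk papillomas (2 called) it was 0 after scale or quantile normalization, with the array set or the database number range as a block, with only the 2 groups in the fit, within set D and without set C (added after seeing the data), and 1 without centring, with probes measured in all 31 replicates, in the replicate block and without normal skin 1 and carcinoma 6. For carcinomas against low-risk papillomas (0 called) it was 1 in 5 settings: probes measured in all 31 replicates, the swapped array as a tumour of its own, the database number block, the replicate block, and without high-risk papilloma 5 and low-risk papilloma 6 (added later). For low-risk papillomas against normal skin (4 called) it was 0 with the set as a block and within set D, and 3 after scale normalization (Rhoh lost), with the swapped array left out or as a tumour of its own (Cd3e lost), with only the 2 groups or with the other Cd8a probe (Cd8a lost), and with probes measured in all 31 replicates (Rhoh not tested). For high-risk papillomas against normal skin (2 called) it was 0 with the set or database number as a block. It was 1 with probes measured in all 31 replicates and with only the 2 groups. Within sets A, C and D at least 1 of these groups held a lone sample, and no count is given. In high-risk papillomas against normal skin Cd8a was called beside Cd2 and Rhoh after quantile normalization (limma, adjusted p = 0.0143). The same held without normal skin 1 and carcinoma 6 (adjusted p = 0.041). After scale normalization Cd8a was gained (adjusted p = 0.0158) and Rhoh lost (adjusted p = 0.0626). For carcinomas against normal skin (0 called) the number of members called was 1 in the replicate block and with only the 2 groups. It was 2 after scale normalization, without set C and without normal skin 1 and carcinoma 6, and 3 after quantile normalization. With each replicate left out in turn these counts ran, in the same order, from 0 to 2, 0 to 1, 4 to 5, 1 to 3 and 0 to 2, and stayed 0 between carcinomas and high-risk papillomas.

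Signs turned within set D for Cd2 (0.47) and Lag3 (0.68) between high-risk and low-risk papillomas, for Lag3 between carcinomas and high-risk papillomas (-1.07) and for Cd28 between low-risk papillomas and normal skin (-0.046). They turned within set C for Cd2 against normal skin in high-risk papillomas (-0.57) and carcinomas (-0.33), and for Rhoh in carcinomas after scale and quantile normalization (0.72 and 0.13 against low-risk, 0.49 and 0.36 against high-risk papillomas). Among the 39 pairs with an unadjusted p of 0.05 or more, 128 of 1908 alternative values turned their sign, and calls in an alternative numbered 3. The causes were not tested. In the replicate block, which the pairing check does not bear out, Cd2 changed by -1.84 between carcinomas and low-risk papillomas (adjusted p = 0.0244) and Lag3 by -1.45 between papilloma groups (adjusted p = 0.0931). Over all probes, the count called between high-risk and low-risk papillomas was 126, and from 0 to 1208 in other settings; against normal skin it was 1427 in low-risk papillomas (2 to 1979), 948 in high-risk papillomas (0 to 2060) and 219 in carcinomas (0 to 890), and for carcinomas 212 against low-risk (1 to 778) and 8 against high-risk papillomas (0 to 252).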
